A study of Homo sapiens with 18 samples.

Results

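The kinesin superfamily was followed through HAP1 cells that lack the cohesin release factor WAPL, the cohesin loading factor SCC4, or both. Its members were all genes whose symbol is KIF or KIFC followed by a digit. In the annotation 55 symbols met this rule, and 42 of them were among the 20329 gene identifiers of the count tables. All 42 are annotated as protein coding, and they divide into 15 mitotic kinesins, 17 transport kinesins and 10 others with roles in cilia, signalling or centrosomes or with little known about them. The remaining 13 symbols belong to antisense or divergent RNAs and pseudogenes and were not analysed here.

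HAP1 is a near-haploid human cell line, and the parental cells carry mutant p53, which all 6 groups therefore share. Polyadenylated RNA was sequenced in 18 libraries, 3 per group. Set A held wild-type controls (control A), *ΔWAPL* cells of clone 3.3, *ΔSCC4* cells, and *ΔWAPL*/*ΔSCC4* cells made by knocking out SCC4 in *ΔWAPL* 3.3 cells. Set B held wild-type controls (control B) and *ΔWAPL* cells of clone 1.14. CRISPR cuts and an inserted cassette disrupted the genes, with blasticidin resistance in WAPL and puromycin resistance in SCC4, whose gene is MAU2. *ΔSCC4* and *ΔWAPL*/*ΔSCC4* are each named as a single line, so an effect of the knockout and one of the clone cannot be told apart. Nothing in the labels says that replicates were separate cultures, so p-values measure only the spread between these libraries.

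Kinesins are motor proteins that spend ATP to walk along microtubules or to take their ends apart. Mitotic kinesins build the spindle, move chromosomes and close the dividing cell, and their RNA is made mainly shortly before and during mitosis. Transport kinesins carry vesicles, mitochondria and RNA, often through light chains and adaptors, and are abundant in neurons. WAPL takes cohesin off DNA, and SCC4 with its partner SCC2 loads it.

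The promoters of mitotic kinesins carried a short sequence that those of the transport kinesins mostly lacked. In dividing cells the letters TTTGAA form a cell cycle element (the CHR) that often lies just downstream of CCAAT boxes. RefSeq windows on GRCh38.p14, from 250 bases before to 50 bases after each start, were available for 34 of the 42 kinesins. Shown here are the 120 bases before the start of 4 mitotic kinesins that hold both motifs and of 2 transport kinesins that hold neither and that changed in the knockouts. Capitals mark TTTGAA or CCAAT on either strand, so TTCAAA and ATTGG are the same motifs read on the opposite strand.
KIF23, chr15:69414229-69414348, plus strand: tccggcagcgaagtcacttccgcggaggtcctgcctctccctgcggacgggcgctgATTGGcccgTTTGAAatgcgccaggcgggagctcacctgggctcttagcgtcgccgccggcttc
KIF11, chr10:92593010-92593129, plus strand: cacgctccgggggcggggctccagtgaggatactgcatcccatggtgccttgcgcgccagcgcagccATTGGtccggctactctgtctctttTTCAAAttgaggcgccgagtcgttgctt
KIF4A, chrX:70289984-70290103, plus strand: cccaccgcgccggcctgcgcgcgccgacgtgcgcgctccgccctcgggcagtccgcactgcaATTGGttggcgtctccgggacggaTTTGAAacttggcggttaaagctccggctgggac
KIF18A, chr11:28108157-28108276, minus strand: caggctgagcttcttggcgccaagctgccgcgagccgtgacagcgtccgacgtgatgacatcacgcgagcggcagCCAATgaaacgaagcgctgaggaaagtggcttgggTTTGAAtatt
KIF21A, chr12:39443121-39443240, minus strand: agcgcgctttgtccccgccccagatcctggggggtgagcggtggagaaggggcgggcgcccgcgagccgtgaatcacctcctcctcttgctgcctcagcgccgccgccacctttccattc
KIF17, chr1:20718008-20718127, minus strand: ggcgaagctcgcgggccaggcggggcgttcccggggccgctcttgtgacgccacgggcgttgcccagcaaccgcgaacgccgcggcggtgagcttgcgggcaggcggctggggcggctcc

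TTTGAA occurred in the windows of 10 of 15 mitotic kinesins (66.7%), of 1 of 12 transport kinesins (KIF5B) and of 0 of 7 others, beside 15.4% of all 27305 windows. CCAAT occurred in 11 of 15 mitotic kinesins (73.3%), 3 of 12 transport kinesins (25.0%) and 3 of 7 others (42.9%), beside 35.7% of all windows. TTTAAA, another form of the same element, occurred in 4 mitotic kinesins (KIF14, KIF20A, KIF23 and KIF2C), 1 transport kinesin (KIF16B) and 0 others, beside 12.3% of all windows. Both strands were searched, and a window could hold several motifs. A match of letters is a description of the window and not a measured binding site. KIF26B, KIF5A, KIF13B, KIF19, KIF21B, KIF27, KIFC2 and KIFC3 were not among the windows.

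Totals on genes ran from 10007646 to 20711127 reads per library, with a median of 16177867. MAU2 fell to between 0.509 and 1.04 CPM (counts relative to library size, scaled with TMM factors) in *ΔSCC4* and *ΔWAPL*/*ΔSCC4* cells, beside 52.1 to 72.7 CPM elsewhere. WAPL RNA was at 38.0 to 50.2 CPM in the *ΔWAPL* groups and *ΔWAPL*/*ΔSCC4* cells, beside 68.0 to 131.1 CPM elsewhere. The labels give no tissue beyond the cell line, and 0 of 7 haematopoietic markers reached 1 CPM in any library. Of 7 neuronal markers MAP2, SYP and TUBB3 did, their list summing to between 11.1 and 41.3 CPM, with RBFOX3, SNAP25, STMN2 and DCX below 1 CPM in all groups. The fibroblast list (11.8 to 32.8 CPM) was almost wholly COL1A1, and the epithelial list (41.7 to 130.5 CPM) almost wholly KRT18 and KRT8. *ΔWAPL*/*ΔSCC4* cells had the lowest neuronal sum and the highest epithelial sum, and the part of these markers in the results below was not tested.

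Summed over all 42 genes, kinesin RNA made up 3855 to 4484 CPM of a library. Levels of different genes were compared per length, as CPM per kb of exon (RPKM). The highest means over the 18 libraries were those of KIF5B, the ubiquitous heavy chain of conventional kinesin, at 58.0 ± 10.7 RPKM (SD, n = 18) and of KIF20A, a motor of cytokinesis, at 55.6 ± 5.41. KIF1A, a vesicle motor best known from axons, stood at 50.6 ± 5.88 RPKM, followed by KIF2C, a microtubule depolymerase at kinetochores, at 48.8 ± 5.56. KIF4A followed at 46.2 ± 4.52 and KIFC1, a minus-end motor that gathers centrosomes, at 43.5 ± 4.48. From KIF5B to KIF4A each lay within 1 SD of the next in order, while KIFC1 lay more than 1 SD above KIF23 (36.9 ± 4.82). At 10 RPKM or more there were 16 kinesins, 10 of them mitotic and 6 of transport. The mitotic class summed to between 326.7 and 401.7 RPKM per library and the transport class to between 181.9 and 229.0 RPKM.

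At the other end KIF2B had no count in any library, and KIF25, KIF5A, KIF6 and KIF4B had at most 2, 8, 11 and 8 counts. These 5 did not pass the filter on low counts and were not tested. KIF4B is an intronless copy of KIF4A, so reads that fit both may have been left out as not uniquely aligned, and both values are uncertain. KIF12 and KIF19 passed in some comparisons only, which left 35 genes tested in all 8 comparisons.

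KIF26B changed far more than any other kinesin tested. It encodes an atypical kinesin that binds microtubules without working as a usual motor and is known from kidney development and from WNT5A signalling. The gene lies on the plus strand at chr1:245318287-245872734 (GRCh37), and KIF26B-AS1 lies within it on the opposite strand. The libraries kept the strand, but the strand setting of the counting is not given in the sources used here.

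The control A libraries had 4, 5 and 6 KIF26B counts (0.260, 0.308 and 0.357 CPM). The *ΔWAPL* 3.3 libraries had 157, 113 and 120 counts (7.82, 7.99 and 7.97 CPM). The control B libraries had 8, 10 and 8 counts (0.547, 0.672 and 0.450 CPM). Both controls had few counts, and every *ΔWAPL* 3.3 library was far above them. The *ΔWAPL* 1.14 libraries had 198, 206 and 211 counts (10.5, 12.2 and 12.7 CPM). In *ΔSCC4* cells KIF26B had 19, 11 and 24 counts (1.24, 1.12 and 1.66 CPM). In *ΔWAPL*/*ΔSCC4* cells it had 24, 21 and 19 counts (1.36, 1.29 and 1.07 CPM). The last 2 groups overlapped each other, lay above all controls and stayed below both *ΔWAPL* clones.

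**Figure D1:**
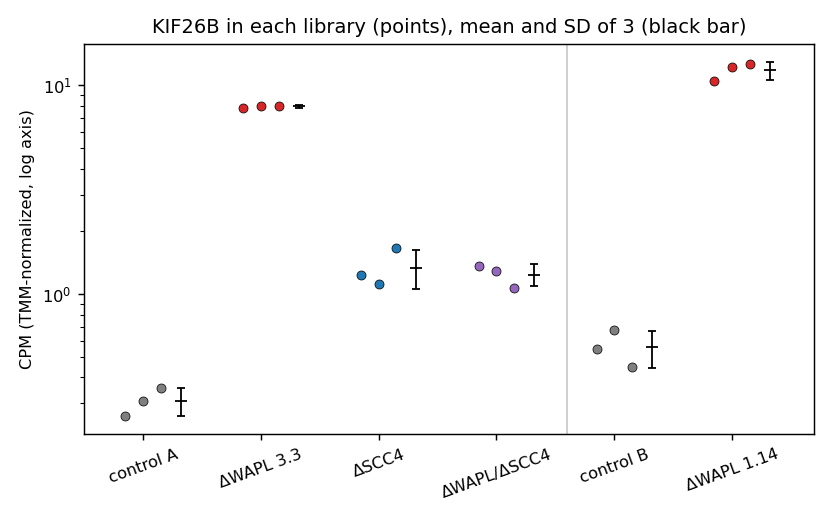
KIF26B in each of the 18 libraries (points, CPM on a log axis) by group, with the mean and SD of 3 libraries (black bar) and a grey line between sets A and B. Both *ΔWAPL* clones lie between 7.82 and 12.7 CPM, *ΔSCC4* and *ΔWAPL*/*ΔSCC4* between 1.07 and 1.66 CPM and the controls between 0.260 and 0.672 CPM.

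Over both clones KIF26B rose 22.6-fold, a log2 fold change of 4.50 with a standard error (SE) of 0.13 and an adjusted p of 3.397e-11. It rose 24.7-fold in clone 3.3 (log2 4.63, SE 0.25, adjusted p = 2.288e-08) and 21.1-fold in clone 1.14 (log2 4.40, SE 0.17, adjusted p = 1.092e-05). The difference between the clones was 0.24 with an SE of 0.32 (adjusted p = 0.910). That KIF26B rose in *ΔWAPL* cells was known when the gene was chosen for description. In bulk RNA, more cells with KIF26B and more KIF26B RNA per cell cannot be told apart.

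SCC4 loss alone raised KIF26B 4.25-fold (log2 2.09, SE 0.35, adjusted p = 0.003058). *ΔWAPL*/*ΔSCC4* cells had 3.93-fold more than control A (log2 1.97, SE 0.31, adjusted p = 0.002349) and 6.34-fold less than the *ΔWAPL* 3.3 cells they came from (log2 -2.67, SE 0.18, adjusted p = 3.978e-08). The comparisons of clone 3.3, *ΔSCC4* and the double knockout with control A share its 3 libraries and their low counts. The level in the double knockout fell short of the sum of both single effects on the log2 scale (interaction -4.75, SE 0.33, adjusted p = 1.925e-07). Permuting labels within sets, an exact two-sided test on log2 CPM gave p = 0.005 for WAPL loss, the smallest that its 400 arrangements can give. Within a set, the exact permutation test of 3 libraries against 3 gives p = 0.1 at best, which is what each of the 5 comparisons of 2 groups gave. Since the rise in *ΔWAPL* cells was known when KIF26B was chosen, the permutation test of WAPL loss is not independent support.

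The genes around KIF26B did not follow it past the threshold in any of the 6 comparisons of groups. Within 1 Mb of its ends lie 11 other protein-coding genes, 10 of them in the tables and 8 tested. Their log2 fold changes over both *ΔWAPL* clones ran from -0.01 (HNRNPU, an RNA-binding nuclear matrix protein) to 0.22 (ADSS2, an enzyme of AMP synthesis). EFCAB2, with its start at -185.3 kb from that of KIF26B, was past the threshold in the WAPL by SCC4 interaction alone (log2 -1.04, adjusted p = 0.02336). Its mean was 3.14 ± 0.55 CPM in control A, 2.86 ± 0.43 in *ΔWAPL* 3.3, 4.45 ± 0.58 in *ΔSCC4* and 1.89 ± 0.26 in *ΔWAPL*/*ΔSCC4* cells (SD, n = 3).

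**Figure D2:**
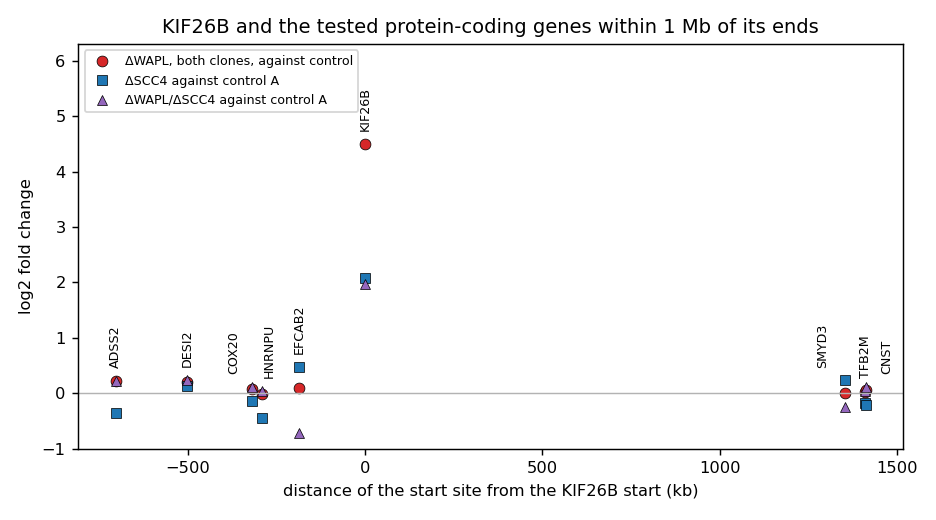
Log2 fold change (vertical axis) of KIF26B and of the 8 tested protein-coding genes within 1 Mb of its ends against the distance of their start from the KIF26B start (kb), for *ΔWAPL* over both clones (circles), *ΔSCC4* (squares) and *ΔWAPL*/*ΔSCC4* (triangles) against control. KIF26B stands at 4.50, 2.09 and 1.97, and the neighbours over both *ΔWAPL* clones lie between -0.01 and 0.22.

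The transport kinesins past the threshold were KIF21A, KIF21B, KIFC3 and KIF3C over both *ΔWAPL* clones, KIF1C, KIF3B and KIF1A as well as KIF21B in clone 1.14, KIF21A in clone 3.3, and KIF17 and KIFC2 in the double knockout. KIF17, which carries receptor vesicles in dendrites and works in cilia, rose in *ΔWAPL*/*ΔSCC4* cells. It had 22, 22 and 18 counts in control A, 24, 14 and 23 in *ΔWAPL* 3.3, 38, 23 and 28 in *ΔSCC4* and 55, 72 and 53 in *ΔWAPL*/*ΔSCC4* cells. Its 3.13, 4.42 and 3.00 CPM in the double knockout lay above every other library of set A. The rise was 2.72-fold over control A (log2 1.44, SE 0.23, adjusted p = 0.002828) and 2.82-fold over *ΔWAPL* 3.3 (log2 1.50, SE 0.24, adjusted p = 0.0004291). In *ΔSCC4* cells alone the fold was 1.73 with an adjusted p of 0.06452. With a replicate block the adjusted p was 0.01278, in a fit that assumes that replicate numbers pair control A with *ΔSCC4*. This pairing was taken from the data and is not stated in the labels. Control B had 33, 25 and 37 counts and *ΔWAPL* 1.14 had 57, 45 and 38, ranges that do not overlap in counts but gave an adjusted p of 0.137.

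KIF21A and KIF21B, closely related motors that also restrain microtubule growth at their ends, were both higher in *ΔWAPL* cells. KIF21A lies on chromosome 12 at 39687030 to 39837192 and KIF21B on chromosome 1 at 200938518 to 200992842 (GRCh37, both minus strand). KIF21A was at 27.3, 31.1 and 41.8 CPM in control A and 52.9, 61.2 and 44.1 in *ΔWAPL* 3.3. In set B it was at 31.2, 17.1 and 46.1 CPM in control B and 62.4, 55.7 and 61.2 in *ΔWAPL* 1.14. Every *ΔWAPL* library was above every control of its set, and the controls spread widely. KIF21A rose 1.73-fold over both clones (log2 0.79, SE 0.19, adjusted p = 0.007695) and 1.56-fold in clone 3.3 (log2 0.64, SE 0.18, adjusted p = 0.03603). The call over both clones held in all 12 fits that left out 1 library. The call in clone 3.3 was lost without *ΔWAPL* 3.3 replicate 1 or 2 or control A replicate 1 or 2 (log2 0.52 to 0.66, adjusted p 0.05319 to 0.2349). In clone 1.14 alone the adjusted p was 0.07022.

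KIF21B was at 15.2, 13.2 and 12.2 CPM in control A and 15.4, 20.1 and 24.9 in *ΔWAPL* 3.3. In set B it was at 16.3, 19.1 and 17.7 CPM in control B and 27.1, 26.9 and 30.4 in *ΔWAPL* 1.14. The libraries of each clone lay above all controls of their set, by little for clone 3.3. KIF21B rose 1.53-fold over both clones (log2 0.62, SE 0.11, adjusted p = 0.0008443) and 1.58-fold in clone 1.14 (log2 0.66, SE 0.09, adjusted p = 0.002391). In clone 3.3 alone the log2 change of 0.55 (SE 0.19) did not pass the threshold (adjusted p = 0.115). In *ΔSCC4* cells it was at 11.9, 11.1 and 9.12 CPM (adjusted p = 0.233, with the replicate block 0.01118) and in *ΔWAPL*/*ΔSCC4* cells at 18.3, 16.9 and 16.7 (adjusted p = 0.204).

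KIFC2 and KIFC3 belong to the family of C-terminal motors, which walk to microtubule minus ends. KIFC2 was at 34.5, 33.0 and 31.7 CPM in *ΔWAPL*/*ΔSCC4* cells. Control A had 23.2, 22.7 and 22.6 CPM and *ΔWAPL* 3.3 had 21.4, 22.4 and 28.8, all of them lower. The log2 change was 0.53 against control A (SE 0.11, adjusted p = 0.01557) and 0.45 against *ΔWAPL* 3.3 (SE 0.14, adjusted p = 0.04233). The first call was lost without any 1 of the *ΔWAPL*/*ΔSCC4* libraries or control A replicate 2 (adjusted p 0.05283 to 0.1018). The second held only without *ΔWAPL* 3.3 replicate 3, with adjusted p of 0.05828 to 0.1999 in the other 5 fits.

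KIFC3 was at 9.96, 8.14 and 8.58 CPM in control A and 11.8, 13.1 and 14.5 in *ΔWAPL* 3.3. In set B it was at 9.02, 9.68 and 10.3 CPM in control B and 11.6, 12.3 and 11.5 in *ΔWAPL* 1.14. No control reached a *ΔWAPL* library of its set, and the rise over both clones was 1.34-fold (log2 0.42, SE 0.09, adjusted p = 0.00482). All 12 fits without 1 library kept it past the threshold. Neither clone passed alone, with a log2 change of 0.54 in clone 3.3 (adjusted p = 0.07061) and 0.28 in clone 1.14 (adjusted p = 0.05767). *ΔSCC4* cells had 14.0, 11.2 and 11.9 CPM (adjusted p = 0.114, with the replicate block 0.003284) and *ΔWAPL*/*ΔSCC4* cells 13.0, 11.5 and 12.4 (adjusted p = 0.0792).

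The transport kinesins that fell did so by small amounts. KIF3C, a partner of KIF3A in a heterotrimeric motor, was at 72.1, 60.4 and 59.1 CPM in control A and 45.2, 49.4 and 56.6 in *ΔWAPL* 3.3. In set B it was at 65.1, 66.5 and 62.7 CPM in control B and 52.9, 59.8 and 53.3 in *ΔWAPL* 1.14. Each clone lay below its controls, and the log2 change over both was -0.29 (SE 0.08, adjusted p = 0.01897). The adjusted p was 0.05652 without *ΔWAPL* 3.3 replicate 2 and 0.07386 without control B replicates 1 and 2, libraries that are described with KIF18A. KIF1C, a motor of vesicles and RNA, fell by 0.29 on the log2 scale in clone 1.14 (SE 0.05, adjusted p = 0.007666), from 202.5, 199.7 and 187.5 CPM to 161.5, 161.4 and 159.6. In clone 3.3 it was at 165.2, 179.1 and 208.4 CPM, which overlapped control A at 231.8, 193.1 and 189.6 (adjusted p = 0.662). In the same clone 1.14 comparison KIF3B, another partner of KIF3A, changed by -0.24 (adjusted p = 0.03809) and KIF1A by -0.15 (adjusted p = 0.04945) on the log2 scale.

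**Figure D3:**
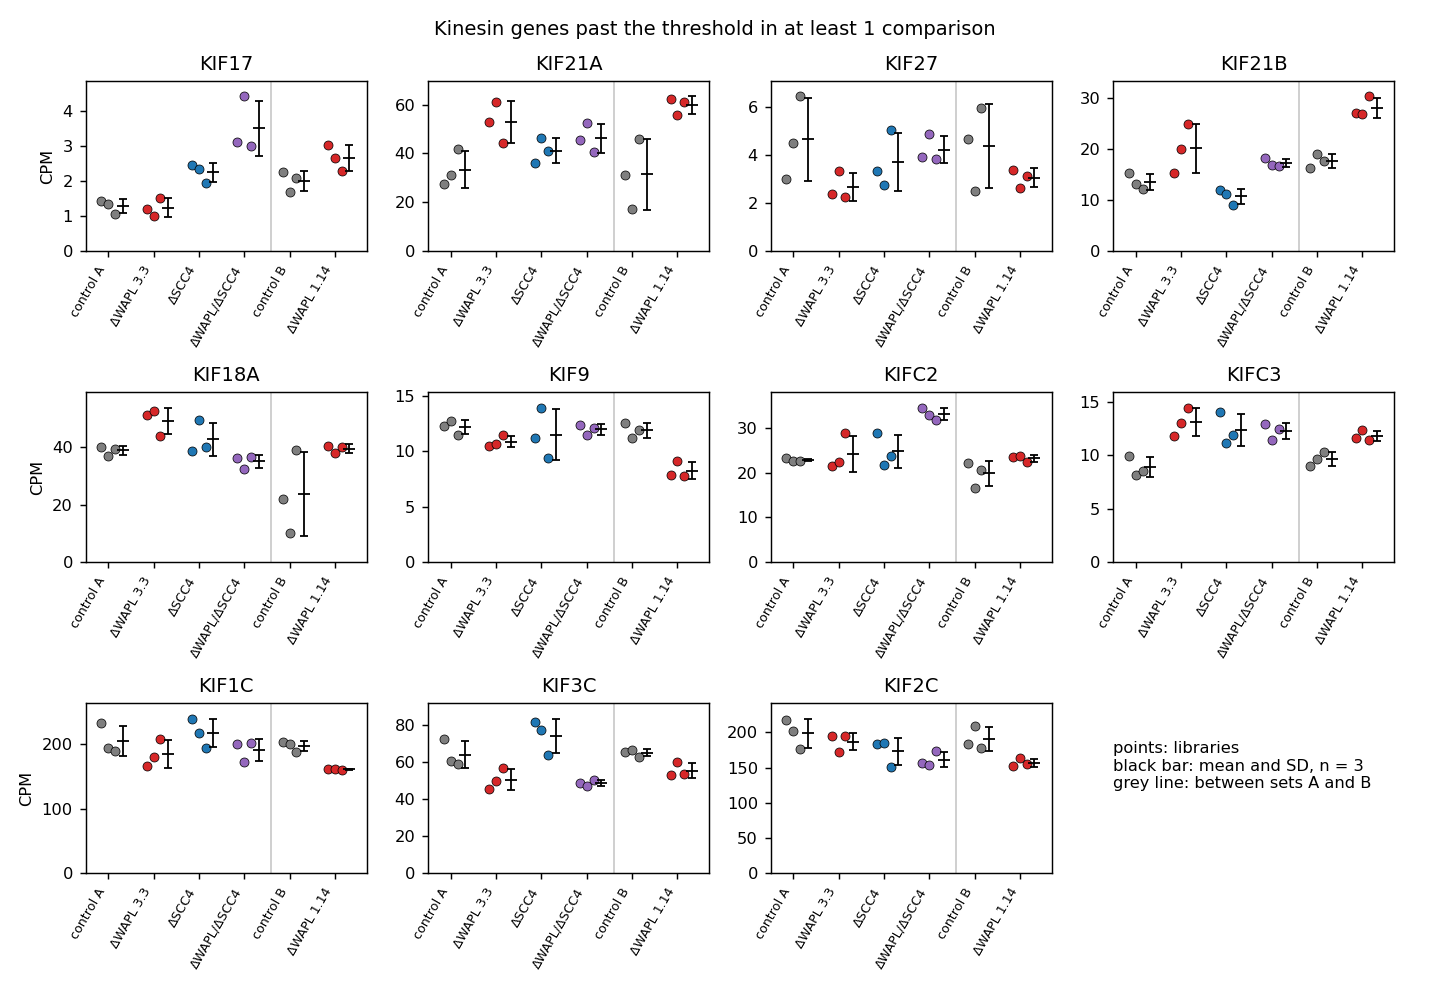
CPM (vertical axes, from 0) of 11 kinesins that passed the threshold in at least 1 comparison, in each of the 18 libraries (points) with the mean and SD of 3 libraries (black bars). KIF21A, KIF21B and KIFC3 are higher in both *ΔWAPL* clones than in their controls, KIF17 and KIFC2 are highest of set A in *ΔWAPL*/*ΔSCC4* cells, and KIF18A has 2 low control B libraries.

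Of the mitotic kinesins KIF18A, KIF2C and KIF20A passed the threshold in at least 1 comparison. KIF18A was at 40.1, 36.99 and 39.6 CPM in control A and 51.3, 52.5 and 44.05 in *ΔWAPL* 3.3. It was at 38.9, 49.5 and 40.1 CPM in *ΔSCC4* and 36.2, 32.5 and 36.6 in *ΔWAPL*/*ΔSCC4* cells. The double knockout lay below every other library of set A, by little beside control A (log2 -0.15, SE 0.12, adjusted p = 0.6095, not past the threshold). It was lower than *ΔWAPL* 3.3 by a log2 change of -0.49 (SE 0.12, adjusted p = 0.01582), and the interaction was -0.60 (SE 0.17, adjusted p = 0.02876). The first call was lost without *ΔWAPL*/*ΔSCC4* replicate 1 or 2 or *ΔWAPL* 3.3 replicate 2 (adjusted p 0.0566 to 0.1137). The interaction held in 5 of 12 fits without 1 library. It was lost without *ΔWAPL*/*ΔSCC4* replicate 1 or 2, *ΔSCC4* replicate 2, *ΔWAPL* 3.3 replicate 1 or 2, or control A replicate 2 or 3 (adjusted p 0.05494 to 0.1047).

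In set B the KIF18A counts were 321, 150 and 696 in control B and 765, 638 and 666 in *ΔWAPL* 1.14. KIF20B, a motor of cytokinesis, likewise had 776, 417 and 1954 counts in control B and 2228, 1770 and 1977 in *ΔWAPL* 1.14. For both genes control B replicates 1 and 2 stood far below replicate 3, which was at the level of the knockout. The log2 change of KIF18A in clone 1.14 was 0.73 with an SE of 0.39 (adjusted p = 0.227), so it did not exceed the spread of its controls.

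KIF2C was at 183.5, 209.7 and 177.3 CPM in control B and 153.0, 163.6 and 154.6 in *ΔWAPL* 1.14, a log2 change of -0.28 (SE 0.08, adjusted p = 0.04165). The groups did not overlap. The call was lost without any 1 of the *ΔWAPL* 1.14 libraries or control B replicate 1 (adjusted p 0.07553 to 0.1381), and also without control B replicates 1 and 2 together (adjusted p = 0.06903). In clone 3.3 KIF2C was at 194.5, 172.4 and 194.4 CPM, which overlapped control A at 218.0, 201.5 and 177.0 (log2 -0.11, adjusted p = 0.7946). Over both clones KIF2C did not pass the threshold (log2 -0.18, adjusted p = 0.1089). KIF20A was past the threshold over both clones (log2 -0.21, SE 0.06, adjusted p = 0.02881) and in clone 1.14 (log2 -0.23, SE 0.06, adjusted p = 0.02622). KIF11, the target of spindle-blocking drugs, ran from 70.3 to 248 CPM over the 18 libraries and passed the threshold in none of the 8 comparisons.

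Of the other kinesins, KIF27 and KIF9 fell in *ΔWAPL* cells. KIF27, a relative of the hedgehog regulator KIF7 with a role in motile cilia, was a low gene with 46, 73 and 108 counts in control A and 48, 47 and 34 in *ΔWAPL* 3.3. It had 51, 27 and 73 counts in *ΔSCC4* and 69, 79 and 68 in *ΔWAPL*/*ΔSCC4* cells. In set B control B had 68, 37 and 106 counts and *ΔWAPL* 1.14 had 64, 44 and 52, and in both sets the counts of knockout and control overlapped. The log2 change was -0.67 over both clones (SE 0.22, adjusted p = 0.04902) and 0.67 in *ΔWAPL*/*ΔSCC4* cells against *ΔWAPL* 3.3 (SE 0.20, adjusted p = 0.03838). Over both clones the call held only without control A replicate 1 or control B replicate 2, with adjusted p of 0.05627 to 0.1046 in the other 10 fits. Against *ΔWAPL* 3.3 it held only without *ΔWAPL* 3.3 replicate 2, with adjusted p of 0.05983 to 0.110 in the other 5 fits. KIF9, a kinesin of the sperm tail and motile cilia, was at 12.5, 11.2 and 11.9 CPM in control B and 7.84, 9.14 and 7.78 in *ΔWAPL* 1.14. It fell by 0.53 on the log2 scale in clone 1.14 (SE 0.09, adjusted p = 0.00798) and by 0.34 over both clones (SE 0.09, adjusted p = 0.0158). Without control B replicates 1 and 2 the adjusted p over both clones was 0.1076. In clone 3.3 it was at 10.5, 10.7 and 11.4 CPM beside 12.3, 12.7 and 11.5 in control A (adjusted p = 0.646). The difference between the clones, 0.36 with an SE of 0.15, did not pass the threshold (adjusted p = 0.363).

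Counted over the family, 15 kinesins passed the threshold in at least 1 comparison and 22 tested kinesins in none. Over both *ΔWAPL* clones 8 of 37 passed, with 4 higher (KIF26B, KIF21A, KIF21B and KIFC3) and 4 lower (KIF27, KIF9, KIF3C and KIF20A), beside 17.7% of all 12786 genes tested (8.56% higher and 9.13% lower). Without control B replicates 1 and 2 these were 5, the same 4 higher and KIF27 lower. In clone 3.3 these were 2 of 35 (KIF26B and KIF21A, both higher), beside 8.07% of all genes (4.17% higher and 3.90% lower). In clone 1.14 they were 8 of 37, with KIF26B and KIF21B higher and KIF9, KIF1C, KIF2C, KIF3B, KIF20A and KIF1A lower, beside 20.1% (8.70% higher and 11.4% lower). The difference between the clones was past the threshold for 0 of 37 by edgeR and by DESeq2, with 1 (KIF9) at an unadjusted p under 0.05 by edgeR, beside 2.65% of all genes (1.67% positive and 0.985% negative). SCC4 loss gave 1 of 36 (KIF26B, higher), beside 9.49% (5.45% higher and 4.03% lower). The double knockout gave 3 of 36 against control A (KIF26B, KIF17 and KIFC2, all higher), beside 7.95% (4.65% higher and 3.30% lower). Against *ΔWAPL* 3.3 it gave 5 of 36, with KIF17, KIF27 and KIFC2 higher and KIF26B and KIF18A lower, beside 10.6% (6.05% higher and 4.55% lower). The WAPL by SCC4 interaction gave 2 of 36 (KIF26B and KIF18A, both negative), beside 11.3% (5.85% positive and 5.48% negative). These shares of the kinesins lie close to those of all genes or below them.

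Set against each other, mitotic and transport kinesins had medians near 0 in most comparisons. The median log2 fold change over both *ΔWAPL* clones was 0.09 for the 13 tested mitotic kinesins (9 positive, 1 past the threshold) and 0.13 for the 16 tested transport kinesins (9 positive, 4 past it), beside 0.01 for all genes. In clone 3.3 the medians were 0.07 and -0.02, and in clone 1.14 0.14 and 0.22. In *ΔSCC4* cells 11 of 13 mitotic kinesins were negative with a median of -0.15, beside -0.04 for transport kinesins with 9 of 16 negative. In *ΔWAPL*/*ΔSCC4* cells against control A 11 of 13 mitotic kinesins were negative (median -0.06) and 13 of 16 transport kinesins positive (median 0.15). Against *ΔWAPL* 3.3 the medians were -0.20, with 11 of 13 negative, and 0.07. All genes tested had medians of -0.005 in *ΔSCC4* cells, 0.001 in the double knockout against control A and -0.011 against *ΔWAPL* 3.3. The share of all genes with a negative change is not given here. Between replicates the class medians had an SD of 0.10 (mitotic) and 0.09 (transport) on the log2 scale. The mitotic median in clone 3.3 became negative without *ΔWAPL* 3.3 replicate 1 (-0.032) or control A replicate 1 (-0.026), and that in clone 1.14 without both low libraries of control B (-0.033). Without control A replicate 3 the transport medians in *ΔSCC4* cells (0.064) and in clone 3.3 (0.117) became positive, as did the mitotic median of the double knockout against control A (0.031). The transport median in clone 3.3 was also positive without *ΔWAPL* 3.3 replicate 2 (0.017). Members of a class are not replicates, and no test was made over a class.

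**Figure D4:**
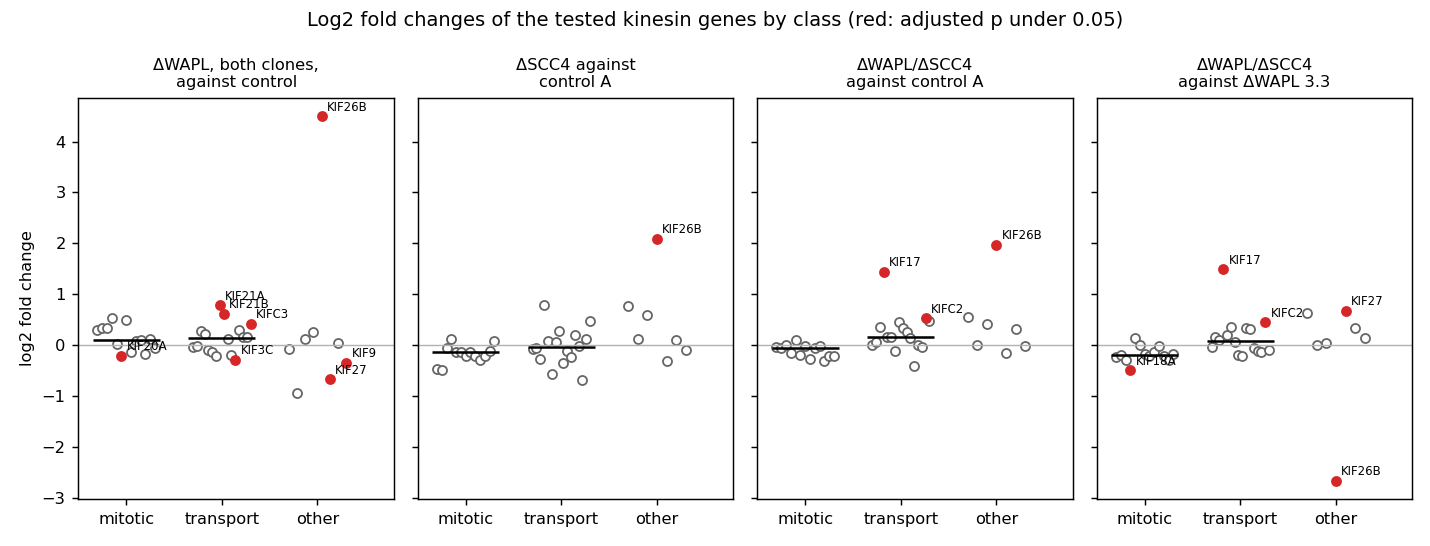
Log2 fold changes (vertical axis) of the tested mitotic, transport and other kinesins in 4 comparisons, with genes past an adjusted p of 0.05 in red and named and bars at the medians of the mitotic and transport classes. Most genes lie near 0, with KIF26B alone above 1.5 over both *ΔWAPL* clones (4.50), in *ΔSCC4* (2.09) and in *ΔWAPL*/*ΔSCC4* cells against control A (1.97).

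By RPKM summed over the class, mitotic kinesins were at 372.2, 373.9 and 374.3 in control A. They were at 330.5 to 353.4 RPKM in *ΔSCC4* and 326.7 to 341.3 in *ΔWAPL*/*ΔSCC4* cells, both below all 3 control A libraries. Control B replicate 2, also wild type, was at 340.7 RPKM, within the ranges of both knockouts. The SD of this sum was 1.1 RPKM in control A and 22.9 in control B. *ΔWAPL* 3.3 (361.1 to 401.7 RPKM) overlapped control A, and *ΔWAPL* 1.14 (369.4 to 376.5) lay within control B (340.7 to 385.5). Transport kinesins were at 193.2 to 220.0 RPKM in control A, and the other groups of set A overlapped this range.

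Replicates of one group differed in kinesin levels along with the GC content of the transcripts. Over 12640 genes the deviation of a library from the mean of the 18 had a Spearman correlation with GC content between -0.562 (*ΔWAPL* 3.3 replicate 1) and 0.535 (*ΔSCC4* replicate 1). This is across genes within a library, and genes are not independent replicates. Of the 37 tested kinesins 16 lie below the median GC of 47.9%, among them 8 of 13 mitotic and 7 of 16 transport kinesins. The median deviation of these 16 ran from -0.44 in *ΔSCC4* replicate 1 to 0.30 in *ΔWAPL* 3.3 replicate 1, beside -0.11 to 0.18 for the 21 of higher GC. Control A replicate 1 (-0.42) and control B replicate 2 (-0.42) were low in the same way. Control B replicate 1 was not (0.05), although KIF18A and KIF20B were low in it too. KIF26B has 54.0% GC and is not among the 16, while KIF18A (36.0%), KIF20B (34.3%), KIF27 (36.1%) and KIF21A (42.1%) are.

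**Figure D5:**
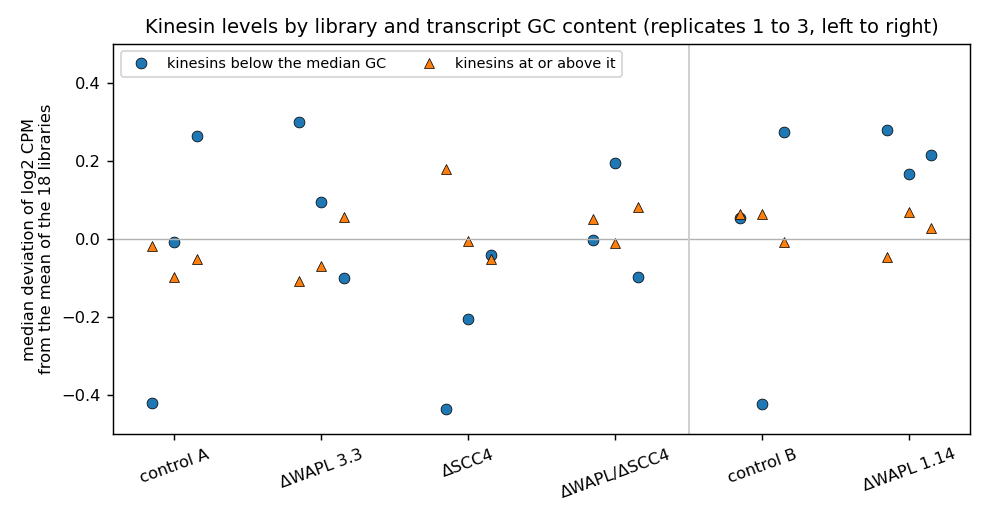
Median deviation of log2 CPM from the mean of the 18 libraries (vertical axis) for the 16 tested kinesins below the median GC content (circles) and the 21 at or above it (triangles), by group, replicates 1 to 3 from left to right. The circles spread from -0.44 to 0.30 with replicates of one group far apart, and the triangles from -0.11 to 0.18.

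The counts for SCC4 loss and for clone 1.14 moved most when a replicate block was added or a library left out. Same-numbered control A and *ΔSCC4* libraries deviated together, though the labels state no pairing. A fit that blocked on the replicate number put 46.0% of all genes past the threshold for SCC4 loss (22.3% higher and 23.7% lower). Of 36 kinesins 17 passed, 6 higher and 11 lower. The lower were the mitotic KIF11 (log2 -0.45), KIF14 (-0.47), KIF2A (-0.29), KIF20B (-0.23), KIF2C (-0.21), KIF23 (-0.20) and KIF22 (-0.13) and the transport kinesins KIF5C (-0.66), KIF1B (-0.58), KIF21B (-0.36) and KIF16B (-0.27). The higher were KIF26B (2.08), KIF17 (0.79), KIF26A (0.58), KIFC3 (0.47), KIF21A (0.29) and KIF3C (0.19). Of the 16 kinesins of lower GC 7 fell and 1 rose, and of the 20 of higher GC 4 fell and 5 rose. Without a block but also without control A replicate 1, SCC4 loss gave 8 kinesins, beside 18.3% of all genes (8.83% higher and 9.52% lower), and without *ΔSCC4* replicate 3 it gave 3. Clone 1.14 gave 21 kinesins without control B replicate 3, beside 37.9% (19.5% higher and 18.5% lower). Of its 16 kinesins of lower GC 10 then rose and 1 fell, and of the 21 of higher GC 3 rose and 7 fell. Without control B replicates 1 and 2 it gave 8 of 38, beside 19.2% (8.48% higher and 10.8% lower), with KIF26B, KIF21B, KIF21A and KIF4A higher and KIF27, KIF9, KIF1C and KIF20A lower. That fit assumes that the lone control varies like the knockout libraries. The part of the GC gradient in these results was not tested.

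Partners of the kinesins were counted in the same way, beside 17.7% of all genes past the threshold over both *ΔWAPL* clones. Of 14 adaptors and light chains, which couple cargo to transport kinesins, KLC3 was higher and TRAK1 lower, with a list median of 0.03. Among 17 tested subunits of dynein and dynactin, the motor of opposite direction, 5 passed, with 1 higher (DYNLT3) and 4 lower (DYNC1I1, DYNC1H1, DYNLL2 and DCTN5) and a median of 0.00. Of 12 mitotic partners such as AURKB, PRC1 and TPX2, 0 passed by edgeR and 1 by DESeq2, with 4 at an unadjusted p under 0.05 and a median of -0.09. CENPE and STARD9, kinesins whose symbols do not match the rule, passed in none of the 8 comparisons by edgeR without a block or by DESeq2, with at most 1 of the pair at an unadjusted p under 0.05.

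In *ΔSCC4* cells all 15 genes of a proliferation list were negative, with a median of -0.27. The median was -0.15 for the mitotic kinesins and -0.005 for all genes tested. MCM6 and MCM4, parts of the replicative helicase, passed the threshold without a block, beside 9.49% of all genes. With the replicate block 13 of the 15 were lower, as were 8 of the 12 mitotic partners. The block rests on a pairing taken from these data, so these counts describe that fit and are not read as results about the lists. The block also put past the threshold 9 of 14 adaptors and light chains (5 higher, 4 lower), 6 of 17 dynein and dynactin genes (3 higher, 3 lower) and STARD9, which was lower. Beside these counts stand the 46.0% of all genes that passed with the block (22.3% higher and 23.7% lower). In *ΔWAPL*/*ΔSCC4* cells 10 of the 15 proliferation genes were negative with a median of -0.09 and 0 past the threshold by edgeR or DESeq2, with 2 at an unadjusted p under 0.05, beside 7.95% of all genes.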

How the data were processed

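Poly(A) RNA was made into stranded libraries by the authors, who deposited raw HTSeq counts per gene. Reads had been aligned with TopHat, version 2.1.1 in the methods of the study and TopHat2 2.0.9 in the submitters' processing notes, which name hg19. The annotation they counted on is not given in the sources used here. HTSeq's summary rows, 20.34 to 22.62% of a library, were left out. Symbols and positions were taken from GENCODE v44lift37 on GRCh37, which held 96.6% of the gene identifiers. Controls were assigned to sets A and B by their titles, knockouts by the run and lane they shared with the controls.

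Each comparison was fitted to all genes with edgeR 4.0.16 (R 4.3.3): TMM scaling, filterByExpr, the quasi-likelihood test, two-sided, and Benjamini-Hochberg adjusted p-values with a threshold of 0.05. Standard errors were taken as the size of the log2 fold change divided by the root of F. The set was a covariate over both clones, where libraries of a clone entered as separate samples. The fits were checked on simulated counts, drawn independently without a GC gradient between libraries, so the check does not cover that gradient. CPM used TMM factors over all 18 libraries, and log2 CPM a prior count of 2. RPKM divides CPM by the length of all exons of a gene together.

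The genes given with values in every sample were the 12 with the largest log2 fold change past the threshold in any comparison. Members, classes and lists were chosen with earlier results of these data known. The class of other kinesins holds unlike genes, so no median was given for it. Alternatives were a replicate block, leaving out each library, a joint fit of all 18 samples, DESeq2 1.42.0 or only its size factors, and no filter or a minimum of 10 counts in each sample. Same-numbered control A and *ΔSCC4* libraries correlated in their deviations from the group means (0.675, 0.115 and 0.615), each above 0.1. On these values alone the numbers were taken to pair them, since the labels state no pairing. Control B and *ΔWAPL* 1.14 gave 0.049, 0.319 and 0.196, and control A and *ΔWAPL* 3.3 gave -0.515, -0.001 and -0.487. These and the other groups compared were not taken as paired. The part of the GC gradient in this agreement was not tested, and p-values with the block rest on the assumed pairing. The chi-square per degree of freedom of the 18 replicate pairs ran from 1.61 to 52, above sampling noise, so no library was a copy of another.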

Additional observations from a re-analysis of the deposited data

Results flagged for a closer look

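KIF26B and KIF18A had a WAPL effect that differed between cells with and without SCC4, by the test of the WAPL by SCC4 interaction in set A. For KIF26B the interaction was -4.7464 on the log2 scale, with 4 to 6 counts in control A, 113 to 157 in *ΔWAPL* 3.3, 11 to 24 after SCC4 loss alone and 19 to 24 in the double knockout. For KIF18A it was -0.60, with an adjusted p of 0.02876 that was lost in 7 of the 12 fits without 1 library, as given above with the libraries concerned. Groups of 3 libraries are too small for a search for single outlying samples, and none was made.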

How the results depend on the processing

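The number of kinesins past the threshold was 8 over both *ΔWAPL* clones, 2 in clone 3.3, 8 in clone 1.14, 1 for SCC4 loss, 3 and 5 for the double knockout against control A and *ΔWAPL* 3.3, 0 for the difference between the clones and 2 for the WAPL by SCC4 interaction. A replicate block changed these to 4, 1, 10, 17, 3, 7, 0 and 1, and only for SCC4 loss were the numbers taken to pair the samples. Shares of all genes past the threshold stand above for the first fits and for some of the alternatives only. For SCC4 loss the share moved from 9.49% to 46.0% with the block. The counts in this section therefore describe the fits and are not read as results about the kinesins. One fit over all 18 samples gave 4 in clone 1.14, 5 for SCC4 loss and 6 for the double knockout against control A. DESeq2 gave 2 for SCC4 loss, and no filter gave 2 for SCC4 loss and 4 in clone 3.3. At least 10 counts in every sample gave 0 for SCC4 loss, 1 in clone 3.3 and 1 for the interaction, since this filter removes KIF26B. Without both low libraries of control B, a setting chosen after seeing the data, the fit over both clones gave 5, and the difference between the clones for KIF26B turned from 0.24 to -0.0467. In that setting the mitotic median in clone 1.14 was -0.0334, and the transport medians were 0.0082 in clone 1.14 and 0.0258 over both clones.

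Leaving out each library in turn gave 5 to 10 kinesins over both clones (5 without *ΔWAPL* 3.3 replicate 2). Clone 3.3 gave 1 to 4, with 1 without *ΔWAPL* 3.3 replicate 2 or control A replicate 2 and 4 without control A replicate 1. Clone 1.14 gave 4 to 21, with 4 without *ΔWAPL* 1.14 replicate 1 or 3 or control B replicate 1, 5 without *ΔWAPL* 1.14 replicate 2 and 21 without control B replicate 3. SCC4 loss gave 1 to 8, with 3 without *ΔSCC4* replicate 3 and 8 without control A replicate 1. The double knockout against control A gave 2 to 6, with 6 without control A replicate 1. Against *ΔWAPL* 3.3 it gave 2 to 5, with 2 without *ΔWAPL*/*ΔSCC4* replicate 1 or 2 and 3 without its replicate 3 or *ΔWAPL* 3.3 replicate 2. The difference between the clones gave 0 to 1, with 1 without control B replicate 3. The interaction gave 1 to 4. It was 4 without *ΔSCC4* replicate 3 or control A replicate 1, and 1 without *ΔWAPL*/*ΔSCC4* replicate 1 or 2, *ΔSCC4* replicate 2, *ΔWAPL* 3.3 replicate 2, or control A replicate 2 or 3. The mitotic median ran from -0.0318 to 0.173 in clone 3.3 and from -0.1659 (without *ΔWAPL*/*ΔSCC4* replicate 2) to 0.0308 in the double knockout against control A. The transport median ran from 0.0464 to 0.1787 over both clones, from -0.0362 to 0.117 in clone 3.3, from 0.0915 to 0.2735 in clone 1.14, from -0.0782 to 0.0637 for SCC4 loss and from 0.0745 to 0.3073 for the double knockout against control A. Low ends came without control B replicate 2 over both clones and in clone 1.14, and the high ends in clone 3.3, SCC4 loss and the double knockout without control A replicate 3.

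KIF26B kept its direction and its call in all 6 comparisons of groups in all fits in which it was tested. Of the single-gene values, 173 of those without 1 library were on the same side of the threshold as in the first fit and 43 were not, and none changed direction. Apart from the filter that removes KIF26B, the causes were not tested. Counts of 4 to 10 in the controls limit the precision of the KIF26B fold change.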
